A study of Mus musculus with 12 samples.

Results

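The mitochondrial ribosomal protein genes of mouse liver were compared between livers without hepatocyte Acly and Acss2 and control livers. The members were the rows of the deposited table whose symbol begins with Mrpl or Mrps followed by a digit, 77 of 12284 named genes, with 48 Mrpl rows (large subunit by name) and 29 Mrps rows (small subunit by name). All mice were Acly f/f; Acss2 f/f. The 6 double knockout (DKO) livers came from mice given AAV8-TBG-Cre and the 6 control (WT) livers from mice given AAV8-TBG-GFP, both by injection at 6 to 8 weeks of age, where the TBG promoter limits expression to hepatocytes and leaves the other liver cells floxed but intact. Western diet feeding began 1 week after injection and lasted 6 weeks. WT animals thus carried the same floxed alleles and also received a virus, so that an effect of Cre or GFP cannot be told apart from that of the deletion.

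The mitochondrial ribosome translates the few messages encoded by mitochondrial DNA, all of which are subunits of oxidative phosphorylation. Its RNA is made in the mitochondrion, while every one of its proteins is encoded in the nucleus, made in the cytosol and imported. Some of these proteins have counterparts in bacterial ribosomes and others were acquired by mitochondria. The large subunit forms peptide bonds and docks on the inner membrane, and the small subunit binds and decodes the message. In liver, an organ rich in mitochondria, these genes are expressed by hepatocytes and by every other nucleated cell.

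Not every symbol matched by the rule stands for a protein of the subunit it names. Mrps30 and Mrps18a encode proteins that sit in the large subunit in structures of the mammalian mitochondrial ribosome. Mrps36 encodes a small protein of the 2-oxoglutarate dehydrogenase complex and was once taken for a ribosomal protein. Mrpl23-ps1 is a processed pseudogene. Counted by structure, 49 of the rows other than the pseudogene belonged to the large and 26 to the small subunit. The gene of the peptidyl-tRNA hydrolase Mrpl58 stood in the table under its older symbol, Ict1, and was no member by the rule (log2 fold change 0.02, SE 0.12, limma adjusted p = 0.947).

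Values were log2 CPM, that is, read counts scaled to the size of the library, and the back-transformed values of a library summed to between 905964 and 1087992 CPM. The number of reads behind them is unknown, and they are not divided by transcript length, so levels of different genes were not ranked against each other. Acly was at 5.10 ± 0.86 log2 CPM in DKO and 7.61 ± 1.00 in WT livers, and Acss2 at 4.33 ± 0.82 in DKO and 6.51 ± 0.48 in WT livers (SD, n = 6 each; limma adjusted p = 0.0165 and 0.00571), which on average fits the labels of the groups. The groups overlapped for Acly, with DKO 1 at 6.60 log2 CPM and WT 5 at 6.56, and the other DKO libraries within 4.42 to 5.70. DKO 1 was also the highest DKO library for Acss2 (5.74 log2 CPM), below the lowest WT library (6.12). WT 1 was the highest library for both genes (Acly 9.35 and Acss2 7.45 log2 CPM). Whether the 12 libraries stand for 12 mice is not in the labels, and p-values measure the spread between libraries. In a bulk sample fewer cells of a type and less RNA per cell cannot be told apart.

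The mitochondrial ribosomal protein genes were close to their WT level in DKO livers, and none of the 77 passed the test. By limma with Benjamini-Hochberg adjustment over all genes 0 members rose and 0 fell at an adjusted p below 0.05. Of all 12284 genes tested 1.74% (214) were called, with 0.619% higher and 1.12% lower in DKO. Without adjustment 13 members (16.9%) had a p below 0.05, beside 16.4% of all genes. Of these 13 members 11 were lower and 2 higher in DKO, which is 14.3% and 2.60% of the members, while 8.47% of all genes were lower and 7.95% higher at that level. The estimates lay on the lower side of 0 for 52 of 77 members (67.5%), and for 49.2% of all genes. The median log2 fold change of the members was -0.08, or 94.7% of WT, and that of all genes was 0.00414. The members' median was -0.05 without DKO 1 and also without WT 5.

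**Figure D1:**
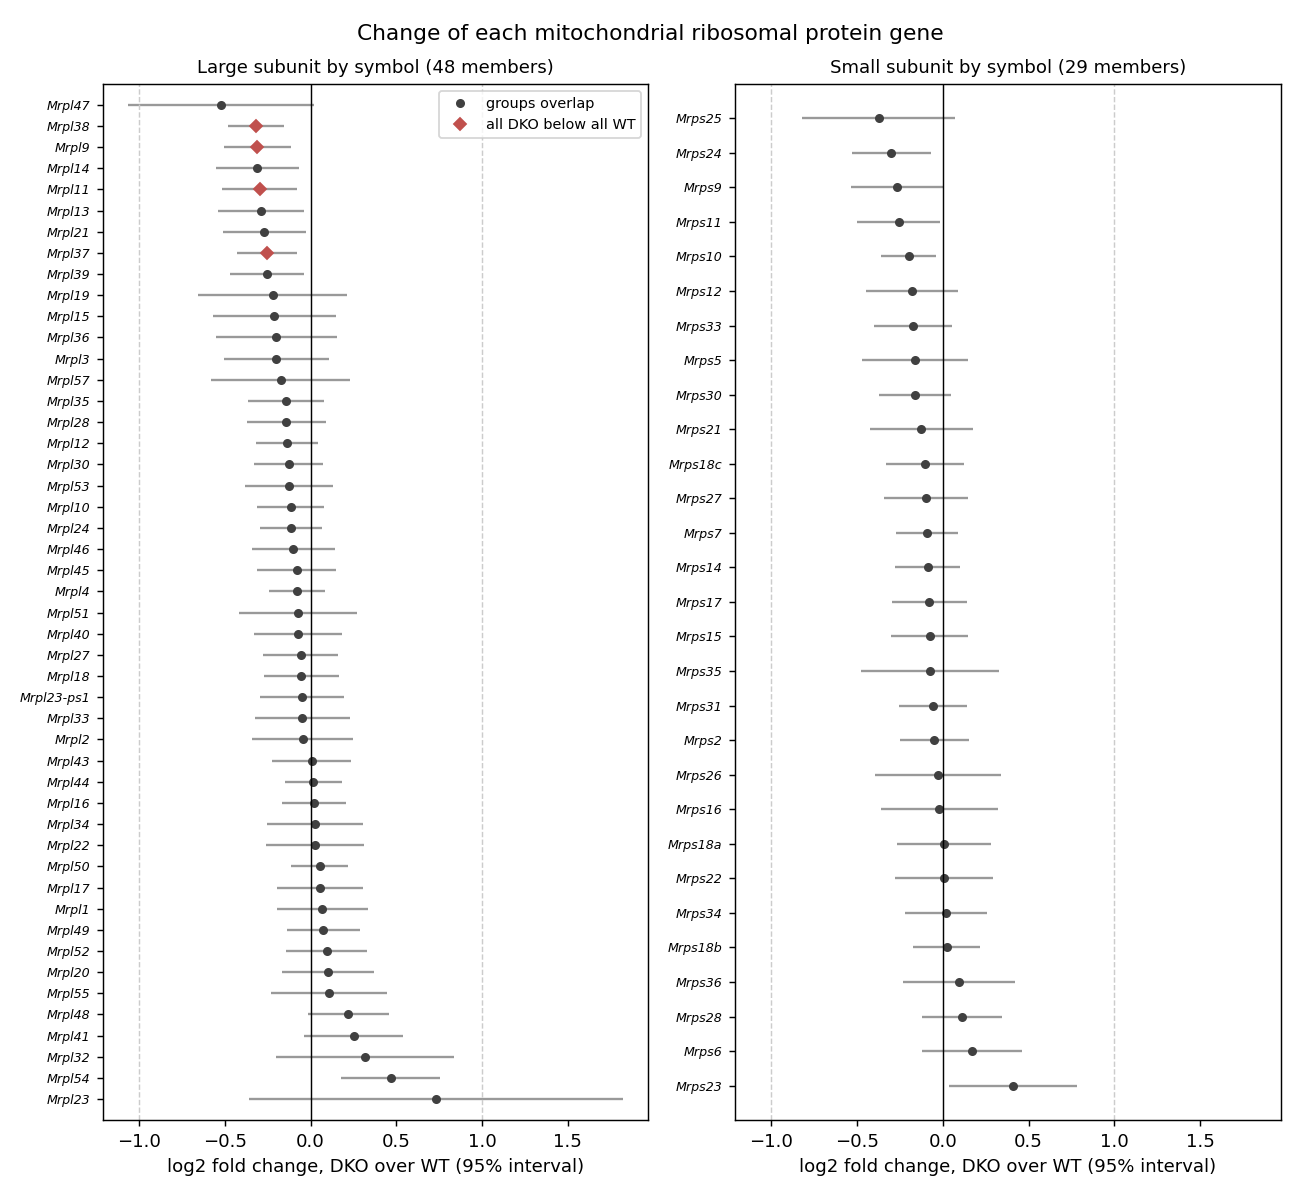
Log2 fold change of each member, DKO over WT, with its 95% interval from limma, for the 48 Mrpl rows on the left and the 29 Mrps rows on the right (dashed lines, a change of 1 on the log2 scale). Red diamonds mark the 4 members whose 6 DKO libraries all lay below the 6 WT libraries. Most intervals cross 0, and those of Mrpl23 and Mrpl47 reach beyond the dashed lines.

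The spread between libraries limited how large a change could have passed unseen. The 95% interval of the fold change stayed within 1 on the log2 scale, a 2-fold change either way, for 75 of 77 members, and within 0.5 for 57 of them. The members outside the wider limit were Mrpl23, treated below, and Mrpl47, a protein at the mouth of the peptide exit tunnel. Mrpl47 ran from 2.21 through a median of 3.38 to 3.76 log2 CPM in DKO and from 3.21 through 3.64 to 4.01 in WT livers. Its groups overlapped, with the library DKO 1 at the bottom, and its log2 fold change of -0.52 had an interval of -1.07 to 0.02 (limma adjusted p = 0.322). Without DKO 1 it was -0.34 (limma adjusted p = 0.498). Among the small subunit genes Mrps25, a mitochondrion-specific protein, had the widest spread within groups (pooled SD 0.40). It ran from 3.30 through 3.70 to 4.17 log2 CPM in DKO and from 3.53 through 4.27 to 4.62 in WT livers, a log2 fold change of -0.37 (limma adjusted p = 0.392). At the other end Mrpl44 had a pooled SD of 0.07 and differed by 0.02 between the groups (95% interval -0.15 to 0.19).

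The large subunit held the members closest to a call. For 4 of its 48 members, Mrpl38, Mrpl9, Mrpl37 and Mrpl11, every DKO library lay below every WT library. That was 5.19% of all 77 members, beside 2.17% of all genes with groups that do not overlap in either direction. Each of the 4 had an exact permutation p of 0.00216 (2-sided), which is the lower limit for 924 possible divisions of these libraries. Groups that do not overlap always give this value, so it restates the separation and adds nothing to it.

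Mrpl38, a mitochondrion-specific protein of the central protuberance, ran from 5.47 through a median of 5.64 to 5.68 log2 CPM in DKO and from 5.78 through 5.93 to 6.14 in WT livers. DKO averaged 80.2% of WT, with a log2 fold change of -0.32 (SE 0.08, 95% interval -0.48 to -0.15, limma adjusted p = 0.0525), just short of the threshold. The adjusted p lay between 0.0311 and 0.112 over 21 alternative analyses and was below 0.05 in 6 of them, among them the analysis without the library WT 1 (0.0311). The library DKO 1, at 5.47 log2 CPM, stood apart from the other DKO libraries, which lay within 5.62 to 5.68; without it the log2 fold change was -0.29 (limma adjusted p = 0.0978).

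Mrpl9, a counterpart of a bacterial large subunit protein, lay between 4.68 and 4.998 log2 CPM in DKO (median 4.88) and between 5.04 and 5.42 in WT livers (median 5.11). DKO averaged 80.6% of WT, a log2 fold change of -0.31 (SE 0.09, limma adjusted p = 0.0985). Mrpl37, specific to mitochondria, ran from 4.81 through 5.02 to 5.19 log2 CPM in DKO and from 5.21 through 5.25 to 5.37 in WT livers, at 83.9% of WT (log2 fold change -0.25, SE 0.08, limma adjusted p = 0.123). The 6 WT libraries of Mrpl37 were close together (SD 0.06) and the DKO libraries spread more widely (SD 0.15). Mrpl11, which forms the base of the stalk that binds translation factors, ran from 3.36 through 3.80 to 3.88 log2 CPM in DKO and from 3.93 through 4.02 to 4.14 in WT livers, at 81.3% of WT (log2 fold change -0.30, SE 0.10, limma adjusted p = 0.154). Its lowest library was DKO 3.

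The start-site regions of Mrpl9, Mrpl37 and Mrpl11 are shown because these are the separated members with an entry in the table of RefSeq promoters; Mrpl38 had none. Each window runs from 250 bases before to 50 bases after the annotated start, and capitals mark matches to the motifs searched. The Mrpl9 window is on the plus strand at chr3:94443086-94443385, that of Mrpl37 on the minus strand at chr4:107066817-107067116 and that of Mrpl11 on the plus strand at chr19:4962056-4962355, all in GRCm38.p6 and written 5′ to 3′ along the gene.
Mrpl9: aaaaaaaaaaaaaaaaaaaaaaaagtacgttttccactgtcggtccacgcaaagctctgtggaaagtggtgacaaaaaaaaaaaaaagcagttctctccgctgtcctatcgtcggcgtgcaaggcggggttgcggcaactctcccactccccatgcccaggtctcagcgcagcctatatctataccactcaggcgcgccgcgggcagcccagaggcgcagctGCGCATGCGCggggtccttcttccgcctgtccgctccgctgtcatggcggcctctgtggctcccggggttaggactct
Mrpl37: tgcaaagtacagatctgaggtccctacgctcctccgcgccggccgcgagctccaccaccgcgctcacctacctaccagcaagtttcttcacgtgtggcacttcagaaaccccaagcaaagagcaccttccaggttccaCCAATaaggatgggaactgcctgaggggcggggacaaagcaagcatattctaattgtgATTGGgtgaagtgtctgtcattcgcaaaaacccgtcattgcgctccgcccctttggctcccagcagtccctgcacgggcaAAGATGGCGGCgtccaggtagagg
Mrpl11: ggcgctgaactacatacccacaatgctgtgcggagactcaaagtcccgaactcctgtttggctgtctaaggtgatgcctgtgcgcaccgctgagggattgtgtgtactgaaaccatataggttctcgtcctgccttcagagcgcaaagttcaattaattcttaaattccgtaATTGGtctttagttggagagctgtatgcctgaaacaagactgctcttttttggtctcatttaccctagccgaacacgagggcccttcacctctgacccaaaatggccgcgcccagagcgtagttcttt

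The motifs were those of the nuclear respiratory factor NRF1 (the letters in capitals in Mrpl9), of ETS factors such as GABPA (CCGGAAG), of YY1 (the longest run of capitals in Mrpl37, where any base was allowed in place of the G of AAG) and the CCAAT box (CCAAT). Each was read on both strands, and none of the matches shown overlap. These factors are known for binding promoters of nuclear genes for mitochondrial proteins. Mrpl9 holds 1 NRF1 match that begins 28 bases before the start. Mrpl37 holds 1 YY1 match beginning 26 bases after the start and 2 CCAAT matches, and Mrpl11 holds 1 CCAAT match.

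Promoter windows were found for 67 of 77 members and for 9224 of the genes tested. The ETS motif occurred in 25 of the 67 members (37.3%), beside 19.7% of tested genes and 9.93% of all 27025 genes of the promoter table. The YY1 motif occurred in 7 members (10.4%), beside 2.85% of tested genes, and the NRF1 motif in 3 members (4.48%), beside 2.40%. The CCAAT box was in 26 members (38.8%) and in 42.9% of tested genes. By subunit the ETS motif was in 14 of 41 large and 11 of 26 small subunit windows, and the NRF1 motif in 3 large and 0 small subunit windows. The median log2 fold change was -0.05 over members with an ETS match and -0.10 over those without one. For YY1 these medians were -0.14 with and -0.08 without a match, for the CCAAT box -0.08 both with and without one, and for NRF1 -0.25 over the 3 members with and -0.08 over those without one. A match is a description of letters in the window, and no test was made of it.

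**Figure D2:**
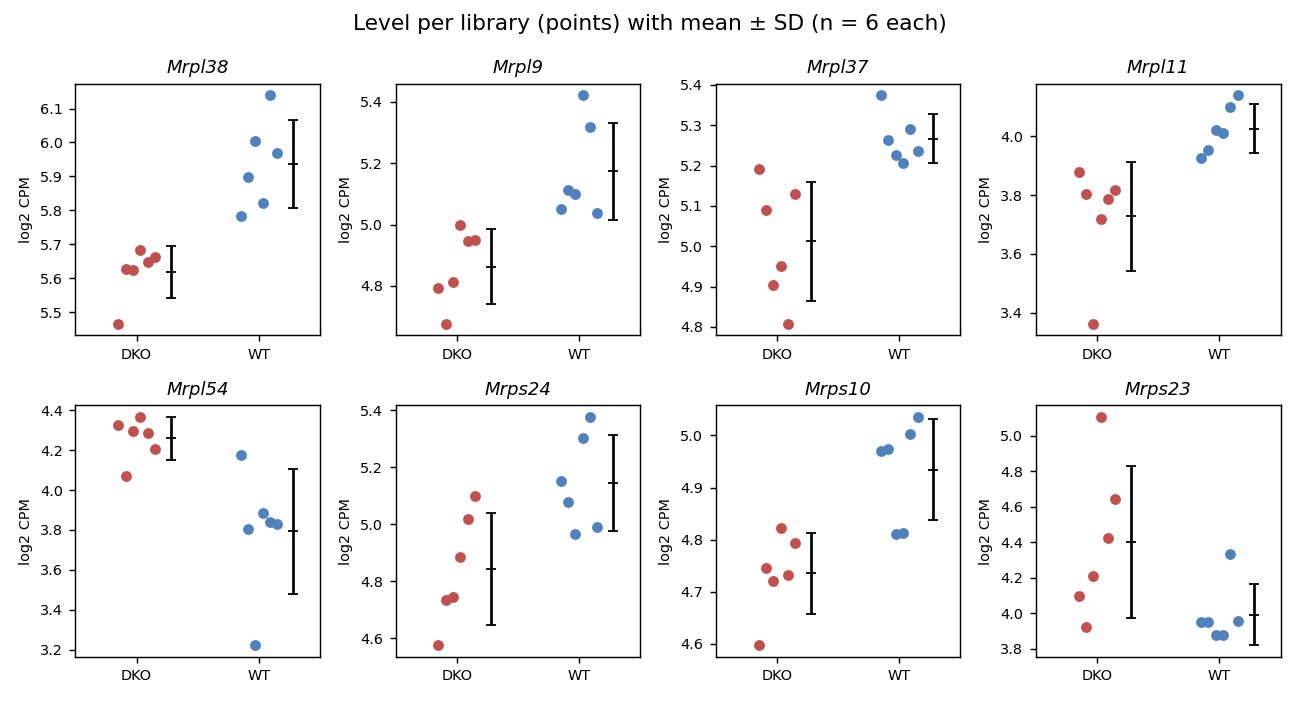
Log2 CPM of 8 members in each DKO library (red) and each WT library (blue), with the mean and SD beside the points (n = 6 each). The groups do not overlap for Mrpl38, Mrpl9, Mrpl37 and Mrpl11 and overlap for the other members shown; Mrpl54 and Mrps23 are higher on average in DKO.

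Another 4 large subunit genes were lower in DKO with an unadjusted p below 0.05 and overlapping groups. They were Mrpl14 (80.6% of WT), Mrpl39 (83.9%), Mrpl13 (81.8%) and Mrpl21 (83.0%), with limma adjusted p of 0.179, 0.224, 0.237 and 0.244. Mrpl14, a protein of the face that meets the small subunit, lay between 4.67 and 5.10 log2 CPM in DKO and between 4.88 and 5.44 in WT livers. Mrpl39, which is related to a tRNA synthetase, lay between 4.47 and 4.88 log2 CPM in DKO and between 4.74 and 5.17 in WT livers. In both genes only part of the DKO libraries lay under the lowest WT library. For Mrpl13 the library DKO 1 (4.06 log2 CPM) was far below the rest of its group.

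Mrpl54, a mitochondrion-specific protein, was the large subunit gene with the smallest p among those higher in DKO. It ran from 4.07 through a median of 4.29 to 4.37 log2 CPM in DKO and from 3.22 through 3.83 to 4.18 in WT livers, so that only WT 1 reached into the DKO range. The log2 fold change was 0.47 (SE 0.13, 95% interval 0.18 to 0.76, limma adjusted p = 0.0928; exact permutation p = 0.00433), a 1.38-fold level. Without WT 1 its adjusted p was 0.0409, and over the 21 alternative analyses the range was 0.0409 to 0.170. Mrpl48, of the central protuberance, and Mrpl41 followed at 1.17-fold and 1.19-fold (limma adjusted p = 0.334 and 0.372). Mrpl48 ran from 4.15 through 4.65 to 4.74 log2 CPM in DKO and from 4.21 through 4.34 to 4.55 in WT livers. The DKO libraries of Mrpl48 lay above 4.5 log2 CPM except DKO 4, and without that library its log2 fold change was 0.30 (limma adjusted p = 0.143). Mrpl41 ran from 3.56 through 3.95 to 4.30 log2 CPM in DKO and from 3.52 through 3.70 to 3.80 in WT livers.

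In the small subunit 0 of 29 members passed the test or had separated groups, beside 1.74% and 2.17% of all genes. At an unadjusted p below 0.05, 3 were lower and 1 higher, which is 13.8% of these members, beside 16.4% of all genes. Whether these counts differ between the subunits was not tested. Mrps24, a counterpart of a bacterial protein at the entry of the message channel, ran from 4.58 through a median of 4.81 to 5.10 log2 CPM in DKO and from 4.96 through 5.11 to 5.38 in WT livers. It averaged 81.1% of WT (log2 fold change -0.30 with an SE of 0.11, limma adjusted p = 0.168), and 2 DKO libraries reached into the WT range. Mrps10 lay between 4.597 and 4.82 log2 CPM in DKO and between 4.81 and 5.04 in WT livers, with 1 DKO library above the lowest WT library (87.1% of WT, limma adjusted p = 0.199). Mrps11 was at 83.6% and Mrps9 at 83.1% of WT (limma adjusted p = 0.275 and 0.309), both counterparts of bacterial proteins. Mrps11 ran from 3.04 through 3.14 to 3.39 log2 CPM in DKO and from 3.11 through 3.46 to 3.65 in WT livers, and Mrps9 from 3.52 through 3.90 to 4.12 in DKO and from 3.83 through 4.19 to 4.33 in WT livers.

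Mrps23, a mitochondrion-specific protein of the small subunit, was higher in DKO on average. It ran from 3.92 through a median of 4.32 to 5.11 log2 CPM in DKO and from 3.88 through 3.95 to 4.33 in WT livers, a log2 fold change of 0.41 (SE 0.17, 95% interval 0.04 to 0.78, limma adjusted p = 0.257). WT 5 lay at 4.33 log2 CPM while the other WT libraries stayed within 3.88 to 3.96, and DKO 4 was the highest library of all. Without DKO 4 the log2 fold change was 0.27 (limma adjusted p = 0.391). The next genes on this side were Mrps6 at 1.13-fold and Mrps28 at 1.08-fold (limma adjusted p = 0.586 and 0.665). Mrps6 ran from 2.75 to 3.40 log2 CPM in DKO and from 2.67 to 3.16 in WT livers, and Mrps28 from 4.10 to 4.59 in DKO and from 4.07 to 4.48 in WT livers, so that both overlapped over most of their range. Without DKO 1 the log2 fold change was 0.11 for Mrps6 (0.17 with it) and 0.06 for Mrps28 (0.11 with it).

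The Mrps symbols that do not stand for small subunit proteins did not stand out. Mrps30 ran from 4.47 to 4.93 log2 CPM in DKO and from 4.64 to 4.999 in WT livers, at 89.5% of WT (limma adjusted p = 0.449). Mrps18a ran from 4.03 to 4.88 log2 CPM in DKO and from 4.29 to 4.68 in WT livers, at 100.4% of WT (limma adjusted p = 0.989), and its direction reversed in 9 of 21 alternative analyses. Mrps36 ran from 2.43 to 3.19 log2 CPM in DKO and from 2.61 to 3.07 in WT livers, at 106.7% of WT (limma adjusted p = 0.821). Its log2 fold change of 0.09 lay between 0.03 and 0.20 over the alternatives, with 0.198 without DKO 2 and 0.04 without WT 6.

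The difference between large and small subunit was about the same in both genotypes, within the spread of the libraries. The median log2 fold change was -0.08 in both, 94.9% of WT for the 48 large and 94.7% for the 29 small subunit members, and 31 of 48 (64.6%) and 21 of 29 (72.4%) were lower in DKO. The mean level of the large subunit was 4.40 ± 0.05 log2 CPM in DKO and 4.46 ± 0.11 in WT livers, and that of the small subunit 4.31 ± 0.09 in DKO and 4.38 ± 0.10 in WT livers (SD, n = 6 each). The large minus small difference within a library ran from 0.02 to 0.15 in DKO (mean 0.09) and from 0.04 to 0.11 in WT livers (mean 0.07), so the WT range lay inside the DKO range. The genotypes differed by 0.02 in this quantity, less than its SD over the libraries of either group (0.05 in DKO and 0.03 in WT livers). With Mrps30 and Mrps18a in the large subunit and Mrps36 left out the difference was 0.02, and without the rows Mrpl23 and Mrpl23-ps1, an alternative chosen after seeing the data, it was -0.0014.

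**Figure D3:**
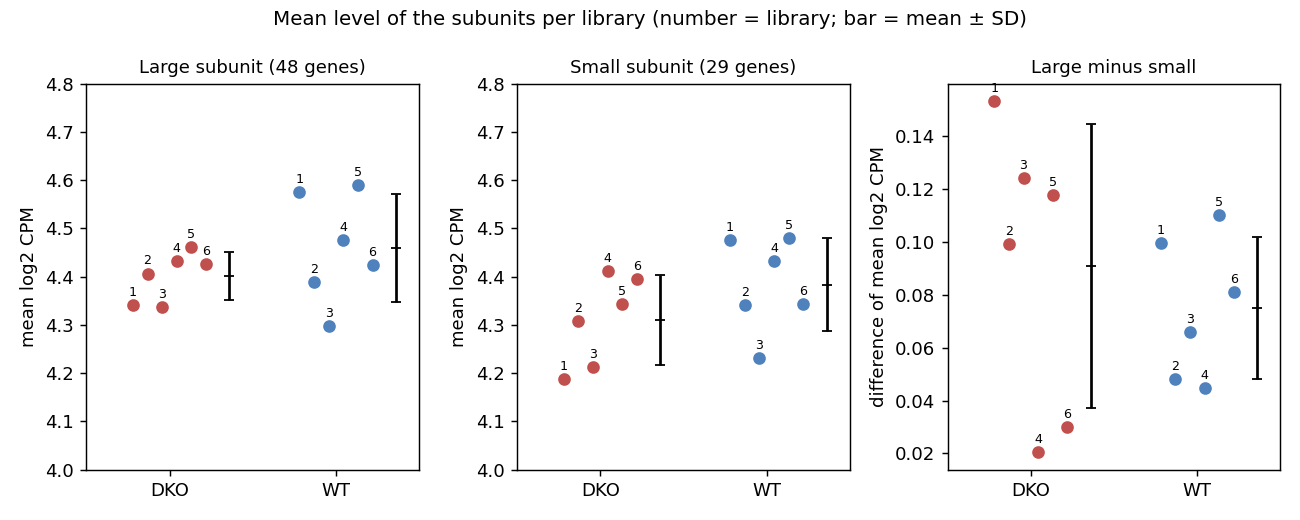
Mean log2 CPM over the 48 large subunit and the 29 small subunit members in each library, and the large minus small difference, for DKO (red) and WT (blue), with library numbers and mean ± SD (n = 6 each). WT 1 and WT 5 are highest and WT 3 is among the lowest in both subunits, and the ranges of the groups overlap in each panel.

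WT 1 and WT 5 were high in both subunits, and DKO 1, DKO 3 and WT 3 were low in both. Of the 77 members, 23 lay above their own mean over all libraries in DKO 1, 22 in DKO 3 and 45 in DKO 6, the highest count in DKO. In WT livers the count was 60 in WT 1, 59 in WT 5 and 21 in WT 3. WT libraries thus covered both ends of the range, and the large subunit mean covered 4.34 to 4.46 log2 CPM in DKO and 4.30 to 4.59 in WT livers; the difference in spread was not tested. Summed over members, the mitochondrial ribosomal protein rows came to 1715 to 1919 CPM in DKO and 1773 to 2116 CPM in WT livers. These sums are not shares of a library, since all values of a library summed to between 905964 and 1087992 CPM.

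Members can also be sorted by origin. Of the 46 with a bacterial counterpart 35 (76.1%) were lower in DKO, and of the 29 specific to mitochondria 16 (55.2%) were. The median log2 fold changes were -0.11 and -0.06. With a bacterial counterpart, 21 of 30 large and 14 of 16 small subunit members were lower in DKO, and of those specific to mitochondria 10 of 19 large and 6 of 10 small subunit members were. None of the members of either origin passed the test with limma, and the difference between the origins was not tested.

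The gene Mrpl23, a protein at the exit of the peptide tunnel, shares most of its coding sequence with its pseudogene. A transcript of Mrpl23 in GENCODE M21 has a coding frame of 441 bases that is identical, base for base, to a stretch of Mrpl23-ps1. The longest reading frame of Mrpl23 has 519 bases, and its match to Mrpl23-ps1 covered 81.7% of them. Untranslated parts were not compared, so some reads may tell the 2 loci apart. Mrpl23 lies on chromosome 7 and Mrpl23-ps1 on chromosome 2. The first 120 coding bases, which both share without a mismatch, are printed to show that a read from here names neither locus.
Mrpl23 and Mrpl23-ps1: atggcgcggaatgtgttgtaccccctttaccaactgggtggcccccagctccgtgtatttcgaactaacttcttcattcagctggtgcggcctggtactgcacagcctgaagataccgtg

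The deposited values put most of the signal on the pseudogene. Mrpl23 ran from 1.31 to 3.65 CPM in DKO and from 0.277 to 3.17 CPM in WT livers, and Mrpl23-ps1 from 13.2 to 19.1 CPM in DKO and from 14.7 to 19.6 CPM in WT livers. Mrpl23 took 6.49% to 19.6% of the sum in DKO and 1.599% to 13.9% in WT livers. Taken by itself, Mrpl23 had the largest estimate of all members, a log2 fold change of 0.73 (SE 0.51, 95% interval -0.36 to 1.82, limma adjusted p = 0.512), with the lowest value in WT 2. Without WT 2 it was 0.29 (limma adjusted p = 0.775), and on the scale of log2(CPM + 1) it was 0.38. The log2 of the sum of both rows was 4.21 ± 0.14 in DKO and 4.19 ± 0.18 in WT livers (SD, n = 6 each), a log2 fold change of 0.02 (SE 0.11, limma adjusted p = 0.952).

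**Figure D4:**
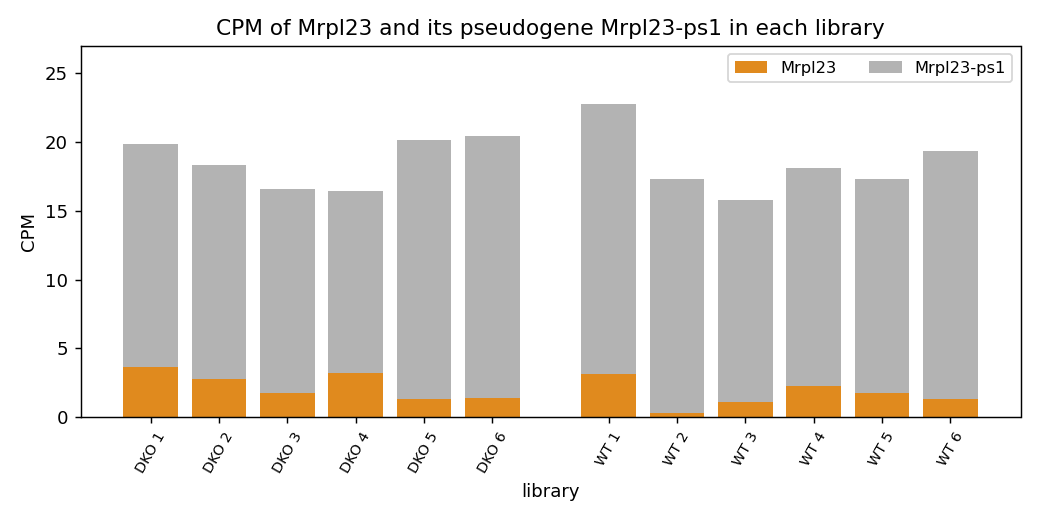
CPM of Mrpl23 (orange) and of Mrpl23-ps1 (grey), stacked, in the 6 DKO and 6 WT libraries. The pseudogene row holds most of each bar, the sum lies between 16.4 and 20.4 CPM in DKO and between 15.8 and 22.8 CPM in WT livers, and the share on Mrpl23 varies within both groups.

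Of the 76 members with a coding transcript in GENCODE M21, 17 had a transcript of another gene at 95% identity or more over at least 50% of the reading frame. For 1 of the 17, Mrpl23, that other gene was a row of the table used here. Others on this list were Mrpl21, Mrpl41, Mrpl48, Mrps10 and Mrps36, whose values may hold reads of their copies or have lost reads to them. How shared reads were assigned is not stated in the labels.

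In 4 further lists of mitochondrial translation none of the genes measured passed the limma test. Of the 5 mitochondrial ribosomal proteins with other symbols, Dap3, Chchd1, Aurkaip1, Ptcd3 and Gadd45gip1, 0 passed the limma test (unadjusted p below 0.05 for 0 of them), with fold changes between 92.9% of WT for Aurkaip1 and 104.7% for Chchd1. Of 27 assembly factors and ribosomal RNA modifiers 0 passed (unadjusted p below 0.05 for 0); their median log2 fold change was -0.01. Mterf4, which brings a methyltransferase to the large subunit, had the smallest p at 84.8% of WT (limma adjusted p = 0.317). Of 18 translation factors 0 passed and 1 had an unadjusted p below 0.05, Guf1, the mitochondrial homolog of an elongation factor, at 1.19-fold (limma adjusted p = 0.214). Of 17 mitochondrial tRNA synthetases 0 passed and 1 had an unadjusted p below 0.05, Aars2, the alanyl-tRNA synthetase, at 82.7% of WT (limma adjusted p = 0.150).

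Among 24 genes that replicate, transcribe or mature mitochondrial DNA and RNA, 1 fell and 0 rose. This was Hsd17b10, a subunit of mitochondrial RNase P that also breaks down isoleucine and fatty acids, at 6.51 ± 0.21 log2 CPM in DKO and 7.13 ± 0.34 in WT livers (SD, n = 6 each). That was 65.0% of WT (limma adjusted p = 0.0468). In 13 of 21 alternative analyses, leaving out any library but WT 1 among them, 0 genes of this list were called. Of 9 regulators of nuclear genes for mitochondria 0 passed; Pprc1, a coactivator of the PGC-1 family, was closest at 1.44-fold (limma adjusted p = 0.218), and 1 of the 9 had an unadjusted p below 0.05. Of 18 genes for import and folding of mitochondrial proteins 0 passed with limma and 1 had an unadjusted p below 0.05, the chaperone cofactor Grpel1 at 87.3% of WT (limma adjusted p = 0.264).

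The messages that the mitochondrial ribosome translates, and those of the nuclear subunits that join their proteins, had medians further below 0 than the members. The 13 rows encoded by mitochondrial DNA had a median log2 fold change of -0.20, 11 of them lower in DKO, and a mean level of 10.97 ± 0.23 log2 CPM in DKO and 11.13 ± 0.13 in WT livers (SD, n = 6 each). Of the 13, 0 passed with limma (2 at an unadjusted p below 0.05; mt-Nd6 closest at 77.8% of WT, adjusted p = 0.232). The libraries were selected for polyadenylated messages, and how this bears on mt-Nd6 and the other rows of mitochondrial DNA was not tested. Of 77 rows matching nuclear subunits of oxidative phosphorylation 74 (96.1%) were lower in DKO, beside 49.2% of all genes, with a median of -0.18. At an unadjusted p below 0.05, 24 of them (31.2%) were lower and 0 higher, beside 8.47% and 7.95% of all genes. In 2 of the 77 rows some library stood at the lowest value of the table. The mean level of the nuclear subunits was 5.996 ± 0.10 log2 CPM in DKO and 6.19 ± 0.13 in WT livers, while the mean level over the 77 mitochondrial ribosomal protein rows was 4.37 ± 0.06 in DKO and 4.43 ± 0.11 in WT livers (SD, n = 6 each). The 79 rows of the cytosolic ribosome had a median log2 fold change of 0.01, with 46 higher in DKO and 0 past the test with limma (5 at an unadjusted p below 0.05). These medians are set side by side and the differences between the lists were not tested.

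**Figure D5:**
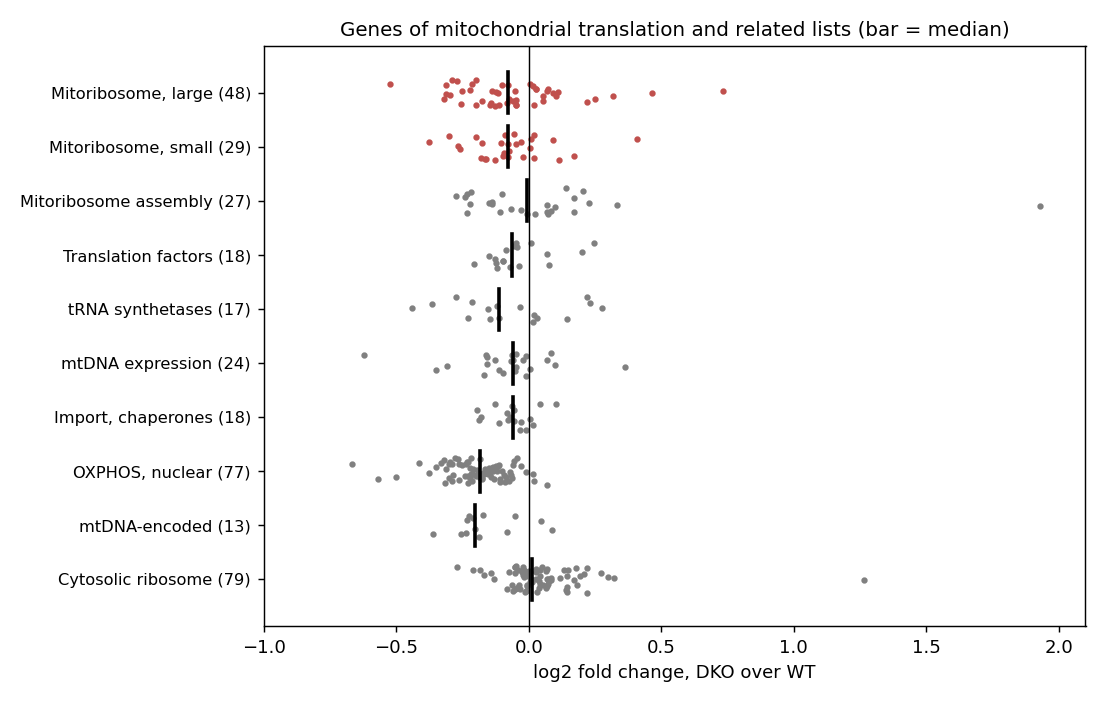
Log2 fold change, DKO over WT, of each gene of 10 lists, with the list's median as a bar and the number of genes in brackets. The members of the mitochondrial ribosome (red) lie around a median of -0.08 in both subunits, the nuclear oxidative phosphorylation subunits around -0.18 and the cytosolic ribosome around 0.01; the point far to the right among the assembly factors is Dhx30, whose libraries differ widely within both groups.

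Markers of other cells moved beside these values. All 18 macrophage and monocyte markers measured were higher in DKO and 3 rose (Gpnmb, Ccr2 and Lyz2), with 16 of 18 at an unadjusted p below 0.05. The number called over 21 alternative analyses ran from 1, as without DKO 4, WT 2 or WT 3, to 10 without WT 1. Their summed level was 517.9 to 837.8 CPM in DKO and 376.3 to 704.8 CPM in WT livers; among them only Gpnmb stood at the lowest value of the table in any library. Of 20 hepatocyte markers 15 were lower in DKO (median log2 fold change -0.15), 1 fell (Asgr1, 78.4% of WT, limma adjusted p = 0.0452), none was at the lowest value, and in 12 of 21 alternative analyses, leaving out any of DKO 1 to 5 or WT 2 to 6 among them, 0 were called. Their summed level was 97050 to 133100 CPM in DKO and 109100 to 130600 CPM in WT livers. All 10 endothelial markers and 9 of 10 stellate cell markers were higher in DKO, with 0 past the limma test (5 and 6 at an unadjusted p below 0.05); without DKO 6, 2 endothelial markers were called. The summed endothelial level was 347.5 to 441.1 CPM in DKO and 327.6 to 371.4 CPM in WT livers, and the stellate level, with Hgf at the lowest value of the table in some library, was 340.3 to 478.6 CPM in DKO and 258.2 to 355.5 CPM in WT livers. Of 4 bile duct markers 3 were higher in DKO, and only 1 of the 4 had an unadjusted p below 0.05. That gene, Spp1, rose 1.83-fold (limma adjusted p = 0.0213), and 0 of the 4 were called without DKO 1 or without WT 6. Which liver cells the Spp1 message came from was not tested. Of 3 lymphocyte, 2 neutrophil and 5 red cell markers 0 passed the limma test (0, 1 and 1 at an unadjusted p below 0.05). The part of these cells in the small differences of the mitochondrial ribosomal protein genes was not tested.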

How the data were processed

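Liver RNA, selected for polyadenylated messages, was sequenced in 12 libraries, 6 DKO and 6 WT by the genotype label. The deposited table holds log2 CPM that the authors filtered and normalized between libraries, per the file name; the filter, any added count and the method are not stated there. Per the submitters' processing notes, kallisto 0.46.2, edgeR, limma and the build GRCm39 (mm39) were used, without their roles. Of 12285 rows, 1 names no gene and was not used (0.0075% to 0.0148% of each library). Depth is unknown, so precision rests on the spread between libraries.

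All 12284 genes were fitted with limma 3.58.1 in R 4.3.3 (mean trend, 2-sided, all 12 libraries, no covariate) with Benjamini-Hochberg adjustment over all of them; a call is an adjusted p below 0.05. Intervals are limma's 95% intervals. Single genes were also compared by exact permutation over 924 divisions. The fit was tested on simulated data. Older symbols were matched through RefSeq synonyms. Promoters came from RefSeq (GRCm38.p6) and transcripts from GENCODE M21, compared with BLAST 2.17.0, and no coordinates of them were set against the deposited values. Figures were drawn with matplotlib 3.10.9. Subunit by structure and origin were assigned from general knowledge of the mammalian mitochondrial ribosome. The members and lists were chosen with earlier results of these data known. Values in full were given for called members, the 4 with the smallest p per subunit and direction, and Mrps30, Mrps18a and Mrps36, 18 in all; Mrpl47, Mrps25, Mrpl44, Mrpl14, Mrpl39, Mrpl13 and Mrpl21 were added after their values were seen. Other lists gave their called gene, or the one with the smallest p; for 1 list, the nuclear subunits of oxidative phosphorylation, single genes are not reported here.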

Additional observations from a re-analysis of the deposited data

Results flagged for a closer look

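In 54 groups of 6 libraries, 5 had 1 library far from the rest, by its gap to the nearest library as a share of the range (Dixon's criterion); chance alone flags about 1 in 20 groups. Mrpl38 was at 5.47 log2 CPM in DKO 1, with the other DKO libraries at 5.62 to 5.68. Mrpl13 was at 4.06 log2 CPM in DKO 1 and 4.49 to 4.67 in the other DKO libraries. Mrpl11 was at 3.36 log2 CPM in DKO 3, against 3.72 to 3.88 in the rest of its group. Mrpl48 was at 4.155 log2 CPM in DKO 4 and 4.53 to 4.74 in the other DKO libraries. Mrps23 was at 4.33 log2 CPM in WT 5 and 3.88 to 3.96 in the other WT libraries.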

How the results depend on the processing

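Over 21 alternative analyses the count of large subunit members called ran from 0 to 2 and that of the small subunit stayed at 0. It was 1 (Mrpl38) with only genes of a mean of at least 1 or at least 3 log2 CPM, with library medians subtracted and with the replicate number as a block, and 2 (Mrpl38 and Mrpl54) with array weights; leaving out 1 library gave 0 to 2, with 2 without WT 1. All genes called numbered 138 without the mean trend, 109 with quantile normalization, 356 with array weights and 397 with the replicate block, and 92 to 373 leaving out 1 library (214 in all 12). The median of each subunit and the large minus small difference moved by less than the pooled SD of single libraries throughout. That SD was 0.087 for the large subunit, 0.094 for the small subunit and 0.043 for the difference. It is wider than the error of a difference between group means, so staying within it does not show that a value was stable. The small subunit median of -0.08 was -0.04 without DKO 1 and -0.03 without WT 5. For the large subunit the median of -0.08 was -0.05 with array weights. Mrps18a reversed to -0.015 with library medians subtracted and -0.0047 with quantile normalization, and lay between -0.0769 and 0.0939 leaving out 1 library. The labels do not say that libraries of equal number are pairs, so the main fit used no block. Libraries of equal number correlated in their deviations at -0.077 to 0.287, and 3 of 6 matched their own number best. These values do not settle whether the numbers are pairs. With the replicate block the SE was 0.149 for Acly and 0.174 for Acss2, beside 0.461 and 0.332 in the main fit. The causes of these changes were not tested. Depth is unknown, which leaves low genes such as Mrpl23 the least certain.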
